A study of Mus musculus with 8 samples.

Results

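The genes examined here encode the pore-forming subunits of the voltage-gated sodium, potassium and calcium channels, the HCN channels and the beta subunits of the sodium channels. They were taken by gene symbol, and 57 of the 53392 genes in the files carried such a symbol. They were read in the cerebral cortex of newborn mice (P0, FVB/N background), 4 libraries from mice with the R342X mutation of Phf6 and 4 from wild-type mice, so all 8 libraries share strain, age and tissue. R342X places a stop codon in Phf6, an X-linked gene for a nuclear zinc-finger protein. The labels name no animal, litter or sex, and do not say whether each library came from a separate animal, and where they did not, p-values cover only technical spread. They also do not say whether the mutation was carried on every copy of Phf6 in each mutant.

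Voltage-gated channels open when the membrane potential changes and let sodium, potassium or calcium ions pass. In neurons, sodium channels start the action potential, most potassium channels end it or hold it back, and calcium channels couple it to transmitter release and gene regulation. HCN channels open on hyperpolarization and pass a depolarizing current. Cortical neurons exchange several of these subunits, and splice forms of them, around birth.

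Of the 57 channel genes, 53 had enough counts to be tested among 20097 genes. The 4 that did not were Scn4a (skeletal muscle sodium channel), Cacna1f (retinal calcium channel), Kcna7 and Kcna10, whose estimated counts stayed between 0 and 17 in each library. Phf6 itself fell in mutants, to 42.2 ± 1.93 CPM from 79.0 ± 8.87 CPM in wild type (SD, n = 4 each; CPM, counts scaled to library size with TMM factors), -0.90 ± 0.08 on the log2 scale (SE, as for each fold below; edgeR adjusted p = 0.00226; exact two-sided permutation p = 0.0286, the smallest that 70 assignments allow). Mutant libraries held 30469745 to 39453169 estimated reads and wild-type libraries 48841467 to 74266937, so each wild-type library was deeper. The first principal component of log2 CPM, with 35.3% of the variance, split the libraries into 2 sets that the labels do not name: set 1 held mutant replicates 1, 2 and 3 and 1 wild-type library, replicate 1, while set 2 held the other wild-type libraries and mutant replicate 4. Values given per library below follow the replicate order, 1 to 4. The sets were defined from the data, and are used below as a term beside genotype. That fit takes the sets as known, so its p-values do not cover their choice from the same libraries. A difference within set 1 rests on 1 wild-type library, and one within set 2 on 1 mutant library.

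Excitatory neuron markers summed to 868 to 959 TPM, a level scaled by transcript length and library, in mutants and 907 to 1046 TPM in wild type, so defining markers of the labelled tissue were present. Members of this list moved apart. In CPM, Neurod6 was lower in all mutant libraries (-0.27 ± 0.06, DESeq2 adjusted p = 0.0120, with the set term -0.32, edgeR adjusted p = 0.0305) and Slc17a7 higher in all (0.30 ± 0.08, DESeq2 adjusted p = 0.0406). In TPM the genotypes overlapped in both genes. Some marker lists were apart between genotypes. The 4 intermediate progenitor markers summed to 52.5 to 68.3 TPM in mutants and 74.9 to 77.9 TPM in wild type, with 3 of 4 lower in mutants. The 6 astrocyte markers summed to 1070 to 1220 and 849 to 1012 TPM, with 4 of 6 higher. The 6 markers of dividing cells overlapped between genotypes, at 230 to 282 and 280 to 297 TPM. They were apart between the sets, at 230 to 280.3 TPM in set 1 and 281.2 to 297 TPM in set 2. All 6 had a fold below 0, with a median of -0.30 that became -0.15 with the set term. The part of these lists in the channel results was not tested. In bulk tissue, fewer cells of a type and less RNA per cell cannot be told apart.

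As a family the channel genes lay slightly higher in mutants, but no single one passed the main test. Of the 53 tested, 44 (83.0%) had a log2 fold change above 0, with a median of 0.17, against 50.3% and a median of 0.001 over all genes tested. The edgeR quasi-likelihood test at an adjusted p under 0.05 called 0 of the 53, where 0.0199% of all genes were called. At an unadjusted p under 0.05, 15 channel genes (28.3%) were higher and 0 were lower, against 6.89% higher and 6.84% lower over all genes. DESeq2 on the same counts called 7 of the 53 higher and 0 lower, against 1.13% and 0.861% of all genes, and gave no adjusted p for 3 of them. With the library set as a term, 34 of 53 (64.2%) were above 0 with a median of 0.04, against 48.5% and -0.004 over all genes, so the median was over 4 times smaller than with genotype alone. A difference above 0 both within set 1 and within set 2 was found in 25 of 53 (47.2%), against 26.4% of all genes. The fit with that term called 0 channel genes where 0.602% of all genes were called. At an unadjusted p under 0.05 it had 9 channel genes higher and 1 lower, against 6.48% and 7.21% of all genes.

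**Figure D1:**
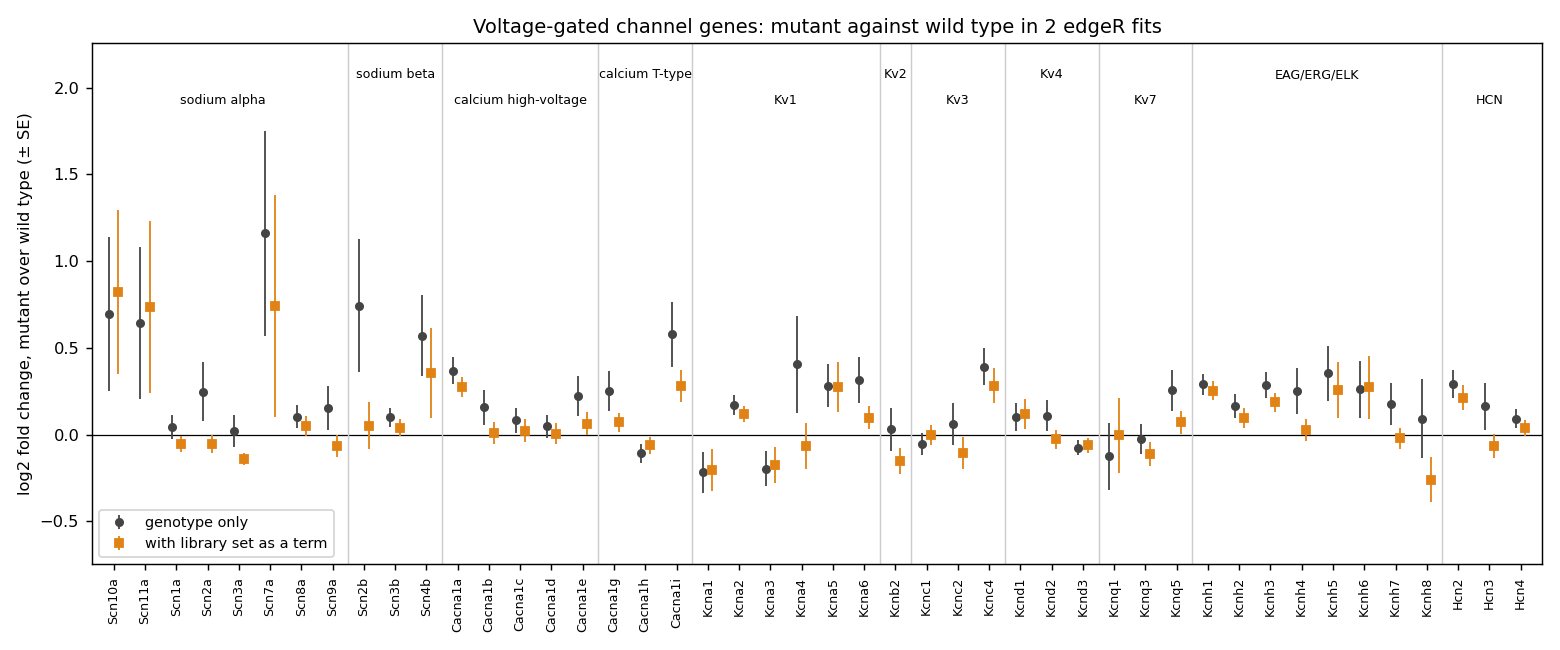
Log2 fold change (mutant over wild type, vertical axis, with the standard error) for 46 of the 53 tested channel genes, grouped by channel class, from the fit on genotype alone (grey circles) and the fit that adds the library set (orange squares). Of those plotted, 39 lie above 0 with genotype alone and 28 with the set term.

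Sodium channel alpha subunits form the pore and carry the upstroke of the action potential. In TPM, which accounts for transcript length, the highest in wild type were Scn2a at 39.1 ± 11.9, Scn3a at 31.8 ± 7.11, Scn8a at 24.0 ± 4.50 and Scn1a at 9.46 ± 1.12 TPM (SD, n = 4), and the first 3 of these overlapped in range between neighbours. Scn2a and Scn3a are the prenatal and neonatal brain channels, while Scn1a and Scn8a gain ground later. Scn9a followed (4.20 TPM over all libraries), and Scn7a, Scn10a and Scn11a, known from sensory ganglia, averaged under 0.31 TPM. Of the alpha genes, Scn3a, Scn2a, Scn1a, Scn9a and Scn7a lie in that order on chromosome 2 (GRCm38, from 65457118 to 66784914), and the cluster ranged from the most to the least abundant alpha genes tested. All 9 tested alpha genes had a fold above 0 with genotype alone, with a median of 0.21, and 5 of 9 with the set term, with a median of 0.05. None had an unadjusted p under 0.05 with genotype alone.

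Scn2a and Scn8a each carry a pair of alternative exons of equal length for part of the first voltage-sensor domain. The upstream one is known as the neonatal form and the downstream one as the adult form. The downstream exons are shown because they mark the adult form. In estimated transcript TPM it held a small share of the pair in Scn2a and a large share in Scn8a. Capitals mark the bases at which the exons of the 2 genes differ. Coordinates are GRCm38, on the plus strand, and both exons are coding.
Scn2a downstream exon (chr2:65682690-65682781): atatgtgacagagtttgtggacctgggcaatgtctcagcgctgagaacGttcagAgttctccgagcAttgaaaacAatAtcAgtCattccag
Scn8a downstream exon (chr15:100959603-100959694): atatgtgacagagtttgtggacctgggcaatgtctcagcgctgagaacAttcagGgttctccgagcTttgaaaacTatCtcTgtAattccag

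These downstream exons differ at 7 of 92 bases (92.4% identity), while the paired exons within a gene differ at 20 bases in Scn2a and 19 in Scn8a, so the adult exon is closer to its counterpart in the other gene than to its neighbour in its own. The downstream exons of Scn2a and Scn9a, which lie in the same cluster of sodium channel genes on chromosome 2, differ at only 2 bases. Salmon divides reads by the whole transcript, and estimates for such exons depend on one another.

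In estimated transcript TPM, the neonatal form made up almost all of the Scn2a pair, while both forms held a large share in Scn8a. The leading Scn2a transcripts are annotated with 8690 bases (upstream exon) and 6348 bases (downstream exon). Those of Scn8a have 11293 and 11232 bases. Estimates are made per whole transcript, so the Scn2a share does not compare forms of equal length. For Scn2a, transcripts with the upstream exon held 97.1, 95.2, 98.5 and 98.8% of the TPM of both forms in mutant replicates 1 to 4. The wild-type replicates held 94.6, 97.3, 96.3 and 97.8%. The genotypes overlapped, with means of 97.4 ± 1.68% and 96.5 ± 1.41% (SD, n = 4; exact two-sided permutation p = 0.457, adjusted p = 0.823 over 9 exon pairs).

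For Scn8a the upstream exon held 35.8, 35.9, 30.4 and 40.9% in mutant replicates 1 to 4. Wild-type replicates 1 to 4 gave 40.1, 53.1, 34.6 and 36.3%. The means were 35.8 ± 4.30% and 41.0 ± 8.38%, and wild-type replicate 2 stood above the rest (exact permutation p = 0.429, adjusted p = 0.823). The annotation also pairs exons in Scn9a, where the upstream form held 98.6 to 100% of TPM in each library. Its leading transcripts also differ in length, with 9840 bases (upstream) and 7497 bases (downstream).

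**Figure D2:**
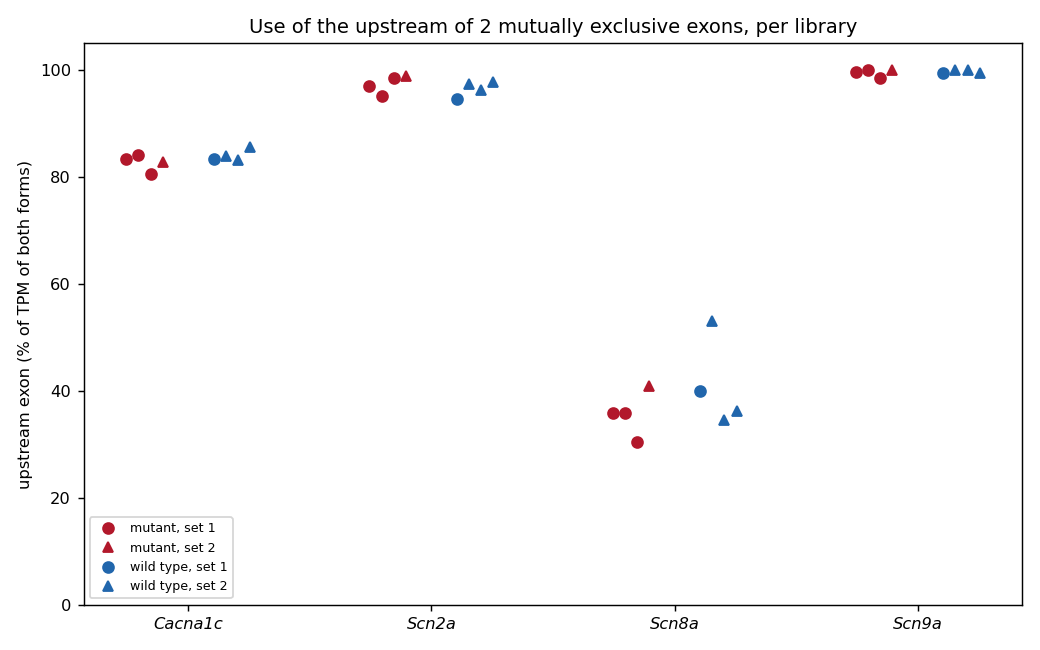
Share of TPM (percent, vertical axis) in transcripts with the upstream exon, out of all transcripts with either exon of the pair, for 4 channel genes; each point is a library, with colour for genotype and shape for library set. Scn2a and Scn9a lie at 94.6% or above, Cacna1c between 80.5 and 85.7%, and Scn8a between 30.4 and 53.1%, and the genotypes overlap in each gene.

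Scn2a read 206, 212, 200 and 133 CPM in the mutants and 210, 145, 148 and 129 CPM in the wild-type libraries. The high libraries were the 4 of set 1, whichever their genotype. The fold was 0.25 ± 0.17 with genotype alone (edgeR adjusted p = 0.510) and -0.05 ± 0.05 with the set term (adjusted p = 0.702).

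Scn3a, a channel of the embryonic brain, read 136, 134, 137 and 109 CPM in mutants and 150, 119, 119 and 120 CPM in wild type, in replicate order. Its fold was 0.02 ± 0.09 with genotype alone (edgeR adjusted p = 0.926). Within each set the mutant level was lower, by log2 differences of -0.14 and -0.13, each with 1 library on 1 side. The set-term fold was -0.14 ± 0.03 (edgeR adjusted p = 0.0911). Scn3a was the 1 channel gene lower at an unadjusted p under 0.05 in that fit, and is named after its values were seen. In the authors' deposited table its log2 fold change was -0.14 with an adjusted p of 0.0508. No source used here states the model behind the authors' deposited table or whether its folds were shrunk towards 0, so they cannot be set against the folds fitted here.

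Scn7a, which encodes a sodium-level sensor, had the smallest p among the alpha genes through a single library. It read 1.91, 0.26, 0.30 and 0.38 CPM in the mutants and 0.41, 0.36, 0.26 and 0.31 CPM in the wild-type libraries. Its fold of 1.16 ± 0.59 (edgeR adjusted p = 0.404) became -0.05 without mutant replicate 1 (adjusted p = 0.980).

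The same library was highest in the pain-fibre channels Scn10a, at 2.33 CPM against 0.36 to 1.47 CPM elsewhere, and Scn11a, at 1.63 CPM against 0.30 to 0.74 CPM. Without it the Scn10a fold went from 0.69 ± 0.45 to 0.14, and the Scn11a fold from 0.64 ± 0.44 to -0.05. Some sensory neuron markers were also highest there, but not all. Prph, a neurofilament of peripheral neurons, read 8.65 CPM there and 1.49 to 2.71 CPM in the other libraries, and Avil, of sensory ganglia, 2.98 CPM against 0.08 to 0.44 CPM. The 5 markers of the sensory and retina list summed to 3.46 to 13.7 TPM in mutants and 2.60 to 4.62 TPM in wild type. Trpv1 and Crx of that list stayed under 0.35 TPM in each library. Trpv1, also a sensory neuron gene, read 0.14 TPM in mutant replicate 1, below the 0.34 and 0.32 TPM of mutant replicates 3 and 4. In CPM it read 0.25 in mutant replicate 1, between 0.19 in replicate 3 and 0.30 in replicate 4. Trpv1 had only 5 to 12 estimated reads per library and was not tested, so its order across libraries is uncertain. The part of such cells in these 3 folds was not tested.

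**Figure D3:**
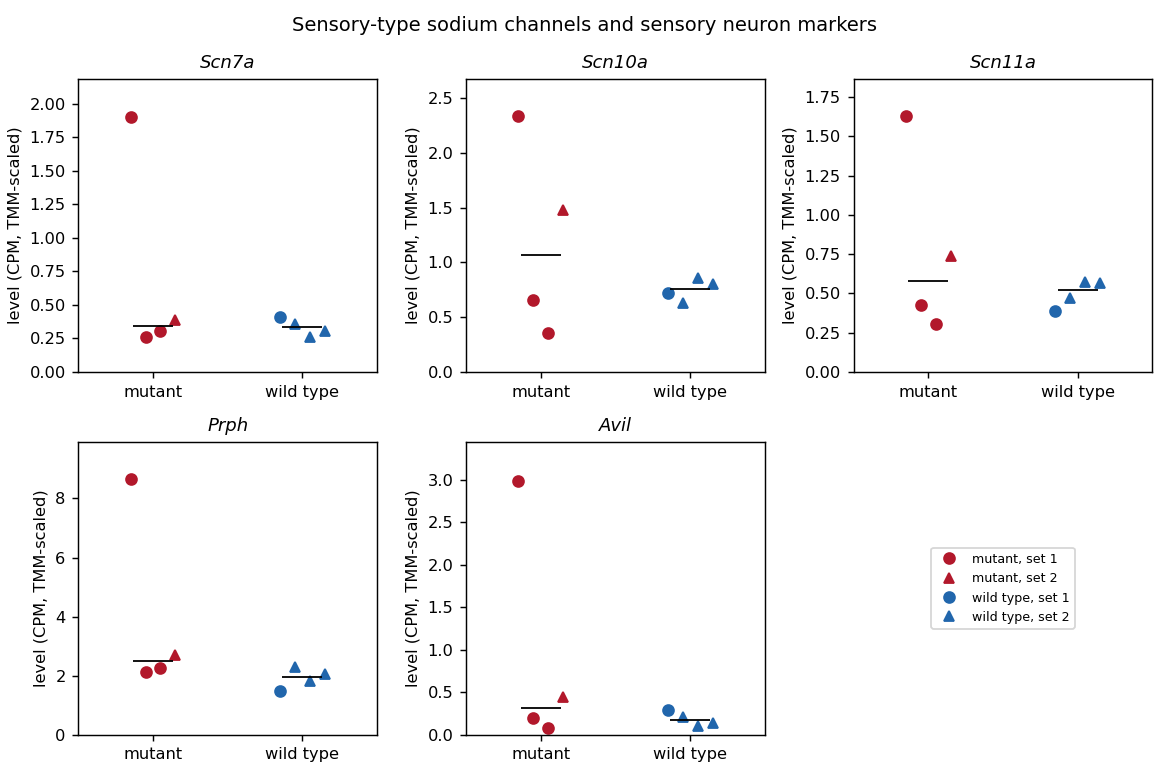
Levels (CPM, vertical axis, 1 point per library, bar at the median of each genotype) of Scn7a, Scn10a and Scn11a beside the sensory neuron genes Prph and Avil. Mutant replicate 1 is the highest point in all 5 panels, at 1.91, 2.33, 1.63, 8.65 and 2.98 CPM.

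Beta subunits are single-pass proteins that attach to the alpha subunit and set its gating and its place in the membrane. All 4 had a fold above 0 in both fits, with a median of 0.42 that became 0.13 with the set term. Scn3b, the embryonic and neonatal beta subunit, had the highest level of all 57 genes at 112 TPM over all libraries. It read 243, 235, 246 and 211 CPM in mutants and 222, 217, 226 and 207 CPM in wild type. The genotypes overlapped, and the fold was 0.10 ± 0.06 (edgeR adjusted p = 0.429).

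Scn2b, which is linked to the alpha subunit by a disulfide bond and accumulates as neurons mature, followed the library sets. It read 14.8, 11.1, 11.0 and 4.31 CPM in mutants and 11.1, 5.27, 4.42 and 4.03 CPM in wild type. The fold of 0.74 ± 0.39 (edgeR adjusted p = 0.412) became 0.05 ± 0.14 with the set term. Scn4b stayed under 1.3 CPM in each library, with a fold of 0.57 ± 0.23 (adjusted p = 0.334).

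High-voltage-activated calcium channels supply calcium for transmitter release (Cacna1a, Cacna1b, Cacna1e) and for signals to the nucleus (Cacna1c, Cacna1d). All 5 tested genes had a fold above 0 in both fits, with medians of 0.16 and 0.02. Cacna1a, the P/Q-type channel of synaptic terminals (chr8:84388440-84640246, plus strand), had both the highest level of the class (47.5 TPM) and the smallest p. It read 82.7, 92.5, 82.5 and 78.4 CPM in the mutants and 74.2, 59.1, 66.3 and 60.7 CPM in the wild-type libraries. Each mutant library lay above each wild-type library in CPM, and within the sets the log2 differences were 0.21 and 0.34. In TPM the genotypes overlapped, with 52.9 TPM in wild-type replicate 1 against 49.5 and 47.6 TPM in mutant replicates 3 and 4. The fold was 0.37 ± 0.08 with genotype alone (edgeR adjusted p = 0.163; DESeq2 adjusted p = 0.00414) and 0.27 ± 0.06 with the set term (edgeR adjusted p = 0.0541). With offsets for transcript length it was 0.24 (edgeR adjusted p = 0.312).

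The other 4 tested genes of the class had folds of 0.05 to 0.22 with genotype alone and 0.01 to 0.06 with the set term. Cacna1c, the main L-type channel of brain, is also annotated with a pair of exclusive exons, with leading transcripts of 13162 (upstream) and 7338 bases (downstream). Its upstream exon held 83.4, 84.1, 80.5 and 82.7% of the TPM of both forms in mutants and 83.4, 84.0, 83.2 and 85.7% in wild type. The means were 82.7 ± 1.58% and 84.0 ± 1.13% (exact permutation p = 0.286, adjusted p = 0.823). For Cacna1a the upstream share was 59.1 ± 2.48% in mutants and 62.7 ± 0.98% in wild type (exact permutation p = 0.0286, the smallest possible; adjusted p = 0.257 over 9 pairs). The downstream form there rests on a 549-base transcript annotated as non-coding, so the share does not compare full-length forms. None of the 9 pairs, in 8 genes, passed after adjustment.

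T-type calcium channels open near the resting potential and support burst firing. Cacna1h had the second highest level of the 57 genes, at 89.1 TPM. It read 182, 198, 179 and 197 CPM in mutants and 193, 195, 215 and 210 CPM in wild type, with overlap, and a fold of -0.11 ± 0.05 (edgeR adjusted p = 0.400). Cacna1i, abundant in the thalamus, read 51.0, 57.9, 46.6 and 35.2 CPM in mutants and 44.1, 26.6, 32.3 and 24.9 CPM in wild type. It was high in the 4 libraries of set 1, and the mutant level was also higher within each set, by log2 differences of 0.23 and 0.34. Its fold of 0.58 ± 0.19 (edgeR adjusted p = 0.264) became 0.28 ± 0.09 with the set term (adjusted p = 0.196). Thalamus markers summed to 18.6 to 21.9 TPM in mutants and 19.5 to 23.2 TPM in wild type. Of these 4 markers 3 had a fold above 0, while Rgs16 was lower in all mutant libraries in CPM (-0.34 ± 0.08, DESeq2 adjusted p = 0.00833). Cacna1g had a fold of 0.25 ± 0.11 that became 0.07 ± 0.06.

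Kv1 potassium channel subunits sit on axons and limit firing. Kcna6 had the highest Kv1 level, 19.3 TPM, and read 68.6, 70.3, 63.3 and 49.2 CPM in mutants and 62.1, 47.0, 50.8 and 42.1 CPM in wild type. It was highest in set 1, and its fold of 0.32 ± 0.13 (edgeR adjusted p = 0.341) became 0.10 ± 0.06 with the set term. Kcna2, a main axonal subunit, read 32.8, 34.9, 33.6 and 33.0 CPM in mutants and 32.5, 29.0, 28.7 and 29.1 CPM in wild type. The genotypes did not overlap, by a margin of less than 1 CPM at wild-type replicate 1. Its fold was 0.17 ± 0.06 (edgeR adjusted p = 0.271) and 0.12 ± 0.05 with the set term (adjusted p = 0.294). Of the 6 tested Kv1 genes 4 were above 0, while Kcna1 and Kcna3 were below at -0.22 ± 0.12 and -0.20 ± 0.10.

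Kv2 channels carry the slow delayed rectifier current of cell bodies. Kcnb2, a subunit of the class, had a fold of 0.03 ± 0.12 with genotype alone (edgeR adjusted p = 0.920). With the set term its fold was -0.15 ± 0.08 (edgeR adjusted p = 0.405).

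Kv3 channels deactivate fast and allow high firing rates. Kcnc4, an inactivating member of the class, read 20.2, 21.1, 19.4 and 15.5 CPM in mutants and 14.7, 12.8, 16.5 and 14.0 CPM in wild type. Mutant replicate 4 fell inside the wild-type range. Its fold was 0.39 ± 0.11 (edgeR adjusted p = 0.232; DESeq2 adjusted p = 0.0362) and 0.28 ± 0.10 with the set term (adjusted p = 0.225). Kcnc1 and Kcnc2, the channels of fast-spiking interneurons, had folds of -0.05 ± 0.06 and 0.06 ± 0.12. Interneuron markers summed to 266 to 294 TPM in mutants and 267 to 299 TPM in wild type. Members of this list moved apart, with 2 of 6 above 0, Slc32a1 at 0.24 ± 0.12 and Gad1 at 0.12 ± 0.10. Gad2 (-0.38 ± 0.09, DESeq2 adjusted p = 0.0173) and Dlx2 (-0.26 ± 0.10, DESeq2 adjusted p = 0.176) were lower in all mutant libraries.

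Kv4 channels give the transient current of dendrites. Kcnd2 had the highest level, 26.7 TPM, and read 79.7, 81.8, 81.4 and 65.0 CPM in mutants and 79.7, 70.5, 72.6 and 62.6 CPM in wild type. The values overlapped, with a fold of 0.11 ± 0.09 (edgeR adjusted p = 0.574). Kcnd3 was the 1 channel gene whose mutant libraries all lay below the wild-type libraries in CPM. In TPM its genotypes overlapped, at 19.2 to 20.4 TPM in mutants and 18.3 to 21.3 TPM in wild type. It read 69.7, 71.5, 72.8 and 72.2 CPM in mutants and 73.8, 76.4, 78.5 and 73.0 CPM in wild type. The difference was small, -0.08 ± 0.04 on the log2 scale (edgeR adjusted p = 0.438), and the closest libraries were less than 1 CPM apart.

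Counting all classes, 5 channel genes (9.43%) did not overlap in CPM between genotypes with mutants higher, among them Kcnh1, Cacna1a and Kcna2, against 2.95% of all genes. In TPM Cacna1a and Kcna2 overlapped. With mutants lower in CPM there was 1 (1.89%), Kcnd3, against 3.20% of all genes, and in TPM it overlapped too.

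Kv7 subunits carry the M-current, which restrains repetitive firing. Of the 5 tested, 3 had a fold above 0 in both fits. Kcnq3, a subunit of the M-channel, had a fold of -0.03 ± 0.08, Kcnq5 one of 0.26 ± 0.12 and Kcnq1, a heart and ear channel under 1.1 CPM here, one of -0.13 ± 0.19.

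In the EAG, ERG and ELK families, coded by Kcnh genes, all 8 members were tested and all 8 had a fold above 0, with a median of 0.26. With the set term 6 of 8 did, with a median of 0.14. Kcnh1, an EAG channel whose variants cause human developmental syndromes (chr1:192190774-192510159, plus strand), had the smallest p of all 53. It read 19.4, 18.8, 18.3 and 17.8 CPM in the mutants and 15.7, 14.9, 15.5 and 14.6 CPM in the wild-type libraries. Every mutant library lay above every wild-type library, and the log2 differences within the sets were 0.27 and 0.24. The fold was 0.29 ± 0.06 (edgeR adjusted p = 0.159; DESeq2 adjusted p = 0.00182) and 0.25 ± 0.06 with the set term (edgeR adjusted p = 0.0648).

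In the authors' deposited table Kcnh1 was the 1 channel gene with an adjusted p under 0.05, of 48 that have one there, at a log2 fold change of 0.23 with an adjusted p of 0.0255. For Cacna1a the authors' deposited table gave 0.07 with an adjusted p of 0.352. With its model and shrinkage unstated, these are not comparable with 0.29 and 0.37.

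Kcnh3, an ELK channel of forebrain neurons, had the highest level of the families at 27.4 TPM. It read 46.1, 50.1, 48.7 and 40.2 CPM in mutants and 40.6, 37.9, 38.0 and 35.0 CPM in wild type. Only mutant replicate 4 and wild-type replicate 1 crossed. The fold was 0.29 ± 0.08 (edgeR adjusted p = 0.207; DESeq2 adjusted p = 0.0261) and 0.19 ± 0.05 with the set term (adjusted p = 0.135). The ERG genes Kcnh2, Kcnh6 and Kcnh7 had folds of 0.16 ± 0.07, 0.26 ± 0.16 and 0.18 ± 0.12.

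HCN channels set resting potential and rhythm. Hcn3 had the highest level, 44.2 TPM, and followed the sets, with 67.8, 71.2, 64.3 and 47.1 CPM in mutants and 67.2, 51.2, 57.4 and 47.7 CPM in wild type. Its fold of 0.16 ± 0.13 (edgeR adjusted p = 0.579) became -0.06 ± 0.07 with the set term. Hcn2 read 43.2, 45.0, 49.9 and 38.0 CPM in mutants and 36.5, 34.5, 38.4 and 34.5 CPM in wild type. Mutant replicate 4 lay just under the highest wild-type library. The fold was 0.29 ± 0.08 (edgeR adjusted p = 0.229; DESeq2 adjusted p = 0.0401) and 0.21 ± 0.07 with the set term (adjusted p = 0.199). Hcn4, the pacemaker subunit, had a fold of 0.09 ± 0.05.

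**Figure D4:**
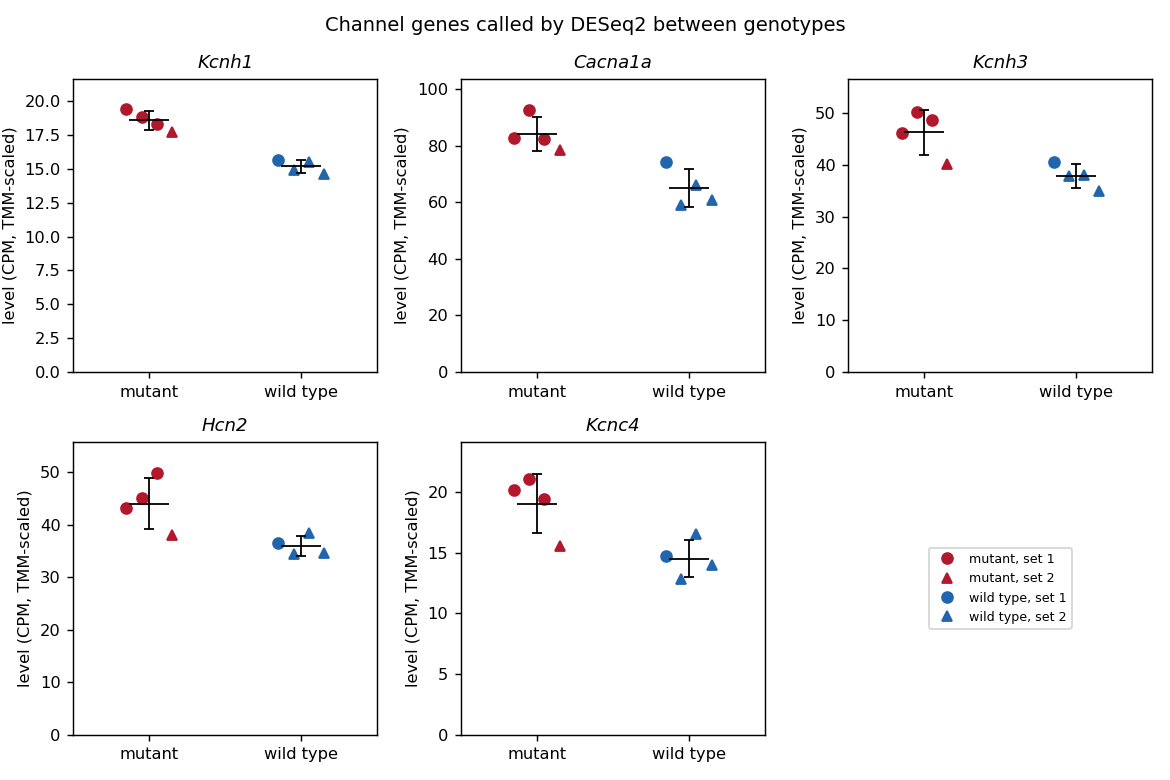
Levels (CPM, vertical axis from 0) of 5 of the 7 channel genes that DESeq2 called higher in mutants; each point is a library, the long bar is the mean of 4 libraries and the error bar their SD. The genotypes are apart in Kcnh1 and Cacna1a, while in Kcnh3, Hcn2 and Kcnc4 mutant replicate 4 reaches the wild-type range.

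The 7 genes that DESeq2 called come from 5 classes, and the fold of each stayed above 0 with the set term. Without mutant replicate 4, edgeR called 6 channel genes, all of them among those 7, where 1.72% of all genes were called higher and 1.65% lower. Without wild-type replicate 1 it called 0, where 0.035% were called in each direction. These 2 libraries are the ones that lie in the set dominated by the other genotype.

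Several channel genes differed between the library sets in both genotypes. The description carries no test, since the sets came from the same data. Scn2b, Kcna4, Scn2a, Cacna1i and Kcnh8 were over 0.5 higher on the log2 scale in set 1 within both genotypes, 5 of 53 (9.43%) against 3.28% of all genes, and 0 were lower by as much, against 3.23%. A set difference above 0 in both genotypes was found in 38 of 53 (71.7%), against 36.7% of all genes.

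Kcna4, an A-type Kv1 subunit, read 5.82, 6.19, 5.82 and 3.13 CPM in mutants and 6.30, 3.47, 3.59 and 2.57 CPM in wild type. Kcnh8, an ELK channel, read 3.11, 2.71, 3.23 and 2.04 CPM in mutants and 3.95, 2.27, 2.20 and 2.06 CPM in wild type. In both genes wild-type replicate 1 was the highest library and mutant replicate 4 lay close to the wild-type libraries of set 2. Scn2b differed most, by 1.49 in mutants and 1.29 in wild type. The sums of several marker lists were apart between the sets as well. Oligodendrocyte lineage markers summed to 148 to 160 TPM in set 1 and 107 to 124 TPM in set 2. Microglia (69.6 to 81.1 and 59.1 to 68.9 TPM), hippocampus (64.1 to 73.35 and 49.1 to 63.4 TPM) and heart and skeletal muscle (19.4 to 25.5 and 13.8 to 18.3 TPM) were also higher in set 1. Radial glia (370 to 406 and 418 to 436 TPM) and dividing cells (230 to 280.3 and 281.2 to 297 TPM) were lower there. Not all members followed these sums. In log2 CPM only Cx3cr1 and P2ry12 of the microglia list were higher in set 1 within both genotypes. Csf1r differed by -0.20 in mutants and -0.03 in wild type, and C1qb by 0.06 and -0.30. The muscle sum was mostly Myh7 (13.7 TPM over all libraries), while Acta1 differed by -0.14 and -0.63, and Tnnt2 by 0.80 and -0.95. Excitatory neuron markers overlapped, at 868 to 1046 and 874 to 941 TPM, as did the other lists. The part of any list in the set differences was not tested.

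**Figure D5:**
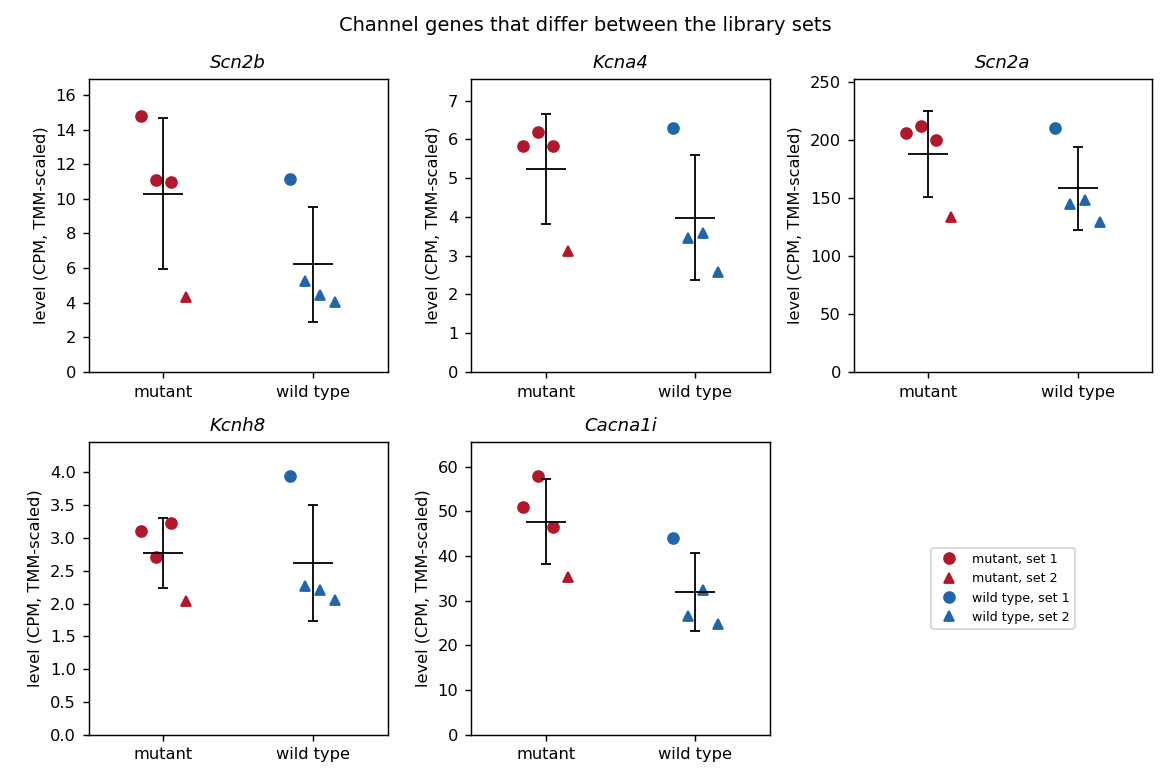
Levels (CPM, vertical axis from 0) of the 5 channel genes that were over 0.5 higher on the log2 scale in set 1 (circles) than in set 2 (triangles) within both genotypes; bars are the mean and SD of the 4 libraries of a genotype. In each panel wild-type replicate 1 stands with the mutants of set 1 and mutant replicate 4 with the wild-type libraries of set 2.

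Channels work with accessory subunits, anchors and regulators, and 55 such genes of 56 listed were found in the files. Of the 51 tested, 36 had a fold above 0, against 50.3% of all genes, with a median of 0.08 that became 0.01 with the set term. The edgeR test called 0, and DESeq2 called 2, both higher, against 1.13% of all genes. Kcnip2, a calcium-binding subunit of Kv4 channels, read 41.5, 39.4, 43.6 and 35.8 CPM in mutants and 32.1, 32.1, 33.0 and 30.1 CPM in wild type, without overlap. Its fold was 0.33 ± 0.07 (edgeR adjusted p = 0.159; DESeq2 adjusted p = 0.00156) and 0.27 ± 0.06 with the set term (edgeR adjusted p = 0.0604). Pex5l, which binds and traffics HCN channels, read 20.3, 19.7, 20.3 and 17.0 CPM against 17.1, 15.1, 15.7 and 14.3 CPM. Only mutant replicate 4 and wild-type replicate 1 crossed, and the fold was 0.31 ± 0.08 (edgeR adjusted p = 0.211; DESeq2 adjusted p = 0.0222). With the set term it was 0.20 ± 0.06 (edgeR adjusted p = 0.136).

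In the other partner lists no member was called by edgeR or DESeq2. Of each of these lists the gene with the smallest p is given. Kcns1, a silent subunit that modifies Kv2 channels, had 0.34 ± 0.11 (edgeR adjusted p = 0.260). Cacnb1, a cytoplasmic beta subunit of calcium channels, had 0.15 ± 0.06 (adjusted p = 0.350) and 0.07 ± 0.05 with the set term. All 8 genes of its list were above 0 with genotype alone and 5 of 8 with the set term. Fgf11, a sodium channel-binding factor, had 0.28 ± 0.09 (adjusted p = 0.257) and 0.15 ± 0.06 with the set term. Ptbp2, a splicing regulator of immature neurons, had -0.17 ± 0.05 (adjusted p = 0.246) and -0.12 ± 0.04 with the set term. Without mutant replicate 4, edgeR called 6 partner genes: Kcnip2, Pex5l, Fgf11, Fgf12 and Celf4 higher, and Rest lower, where 1.72% of all genes were called higher and 1.65% lower. With all libraries Fgf12 had 0.20 ± 0.07 and Celf4 0.19 ± 0.06, which became 0.11 ± 0.05 and 0.10 ± 0.04 with the set term. Rest, the repressor of neuronal genes that include sodium channel genes, then had a fold of -0.42 (adjusted p = 0.0482), against -0.32 ± 0.12 with all libraries and -0.13 ± 0.06 with the set term.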

How the data were processed

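The members and lists were chosen with earlier results of these data known. The authors deposited, per the file headers, an estimated count, which need not be whole, and a TPM per transcript and library. Salmon 0.12.0, DESeq2 and GRCm38 are named in the submitters' processing notes; strand use is not given in the sources used here, so reads of a gene and an antisense partner cannot be told apart. The authors' deposited table holds a mean signal, a log2 fold change, its error, a p-value and an adjusted p-value per gene. Of the channel genes, all 308 transcripts matched GENCODE M21. Estimated counts were summed per gene identifier and rounded, then fitted with edgeR 4.0.16 (R 4.3.3, TMM, default low-count filter, genotype only, quasi-likelihood, two-sided). Calls are Benjamini-Hochberg adjusted p under 0.05 over all 20097 genes tested. Set differences and principal components used log2 CPM with a prior count of 2. Exon pairs are equal-length exons of at least 40 bases, sharing both flanking exons and never in the same transcript. Alternatives were DESeq2 1.42.0, limma-voom (limma 3.58.1), log2(TPM + 1) in limma, other filters (none, or 5 CPM in 4 libraries), robust dispersion, length offsets, a replicate block, the library set, and each library left out. Named genes were, per class, the highest mean TPM and the smallest p, genes called by any of the edgeR, set-term or DESeq2 fits, and genes without overlap; of each partner list, the smallest p or called members. Of the 57 channel genes 7 are not reported here by name, nor are some sequences, though they remain in all counts and medians.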

Additional observations from a re-analysis of the deposited data

Results flagged for a closer look

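In groups of 4 libraries, a library was set apart where its gap to the nearest other library took a larger part of the group's range than Dixon's test allows, which chance alone gives in about 1 in 20 groups. It was found 11 times in 124 groups, of which 10 are given here. Mutant replicate 4 was the lowest mutant library for Scn2a (133 CPM), Scn3a (109 CPM), Kcnd2 (65.0 CPM) and Kcna4 (3.13 CPM), and the highest for Kcna3 (6.52 CPM). Wild-type replicate 1 was the highest wild-type library for Scn3a (150 CPM), Scn9a (23.9 CPM), Kcna2 (32.5 CPM) and Kcnh8 (3.95 CPM). These are the 2 libraries that lie in the set dominated by the other genotype. Mutant replicate 1 was the highest for Scn7a (1.91 CPM), where the other 3 mutants read 0.26 to 0.38 CPM.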

How the results depend on the processing

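DESeq2 called 7 channel genes and 2 partner genes where edgeR called 0, and leaving out single libraries gave 0 to 6 channel genes and 0 to 6 partner genes, with 6 of each only without mutant replicate 4. The median channel fold was 0.0412 with the library set as a term and ran from 0.12 to 0.25 with single libraries left out; the cause was not tested. The other settings on counts, namely both filters, robust dispersion, length offsets, limma-voom and the replicate block, called 0 channel genes. With log2(TPM + 1) in limma, 39 of 47 channel genes were above 0, where the median over all genes was 0.05. In that fit 9 channel genes had an unadjusted p under 0.05, against 15 of 53 in the main fit. Replicate numbers gave no clear pairing of the libraries (correlations of 0.24, -0.03, -0.08 and 0.32). Mutants 1, 2 and 3 all correlated best with wild-type replicate 1, and mutant 4 with wild-type replicate 4. The fit with the replicate block called 20 genes in all against 4, 0 of them channel genes. It had 22 channel genes at an unadjusted p under 0.05, against 15 with genotype alone. Over 886 gene and setting combinations, 34 changed the sign of the fold, in 15 genes, and 12 of these were with the library set as a term. Scn7a, Scn10a, Scn11a, Scn4b and Kcnq1 had under 100 estimated reads in every library.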
